A study of Mus musculus with 10 samples.

Results

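The glucocorticoid receptor (GR) was mapped on the chromatin of mouse macrophages that had received lipopolysaccharide (LPS) with the synthetic glucocorticoid dexamethasone (Dex), or Dex without LPS. The regions described here were chosen by their measured highest tag density, MaxD, of 10 or more, and shared no base with a region of the input list. They numbered 20099 of the 115077 regions in the 10 lists of the study, with 16366 in the LPS with Dex list and 3733 in the Dex list. By an overlap of at least 1 bp they fell into 3 classes. Regions in both lists numbered 3177 in LPS with Dex and 3182 in Dex, 13189 regions were in LPS with Dex alone, and 551 were in Dex alone. Regions of LPS with Dex alone made up 80.6% of the 16366, and those of Dex alone 14.8% of the 3733. At a bound of 20 in place of 10, 7983 were in LPS with Dex alone and 157 in Dex alone. With the same number of regions from each list the counts were 1920 and 1906, which equal list lengths fix close to each other.

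The cells were bone marrow derived macrophages of C57BL/6J mice. The 2 GR libraries came from cells given LPS+Dex and from cells given Dex, and both were cross-linked with 2 mM disuccinimidyl glutarate for 30 min and then with 1% formaldehyde for 10 min. The labels give no dose, and no time for either GR library. The input library held genomic DNA of untreated cells and is labelled as the control of the RelA precipitations, so no GR library of untreated cells or of cells given LPS without Dex was analysed here. RelA lists of macrophages fixed with formaldehyde only were used for comparison: those at 0, 3 and 8 h of LPS, that at 8 h of LPS with late Dex, and that at 3 h of LPS with Dex given 3 h before it. Region lists hold no transcript levels, so the macrophage label could not be checked against marker genes.

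GR is a ligand-activated transcription factor of the nuclear receptor family. It resides in the cytoplasm until a glucocorticoid binds it, then enters the nucleus and binds DNA at glucocorticoid response elements or sits on DNA through other factors. In macrophages it is known for inducing genes that dampen inflammation and for repressing targets of NF-κB, of which RelA is a subunit and which LPS activates through Toll-like receptor signalling.

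Each condition had 1 library, so the spread between replicates is unknown, no test between conditions was made, and all values below describe these libraries. MaxD is the highest and AveD the mean tag density of a region as the authors gave them. How they were scaled is not stated and the depth of the libraries is unknown, so a ratio of MaxD between the lists holds on the authors' scale only. Positions are on mm9 as deposited. Intervals in brackets are exact Clopper-Pearson 95% intervals of shares of regions and cover counting error only.

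The bound of 10 lay between a large low-density part of each list and a long tail of dense regions. It kept 31.9% of the 51358 LPS with Dex regions outside input and 6.80% of the 54875 Dex regions. Just under the bound, from 9 to 10, lay 275 LPS with Dex regions and 159 Dex regions. Just above it, from 10 to 11, lay 619 LPS with Dex regions and 320 Dex regions. The tail of LPS with Dex was the longer one, with 402 regions at a MaxD of 100 or more, against 38 in Dex. Among the low values tested, 95.4% in LPS with Dex were multiples of a step of 0.668 and 97.8% in Dex of a step of 0.597, to within 0.001. A MaxD of 10 stood for 15 steps in LPS with Dex and 16.7 steps in Dex.

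**Figure D1:**
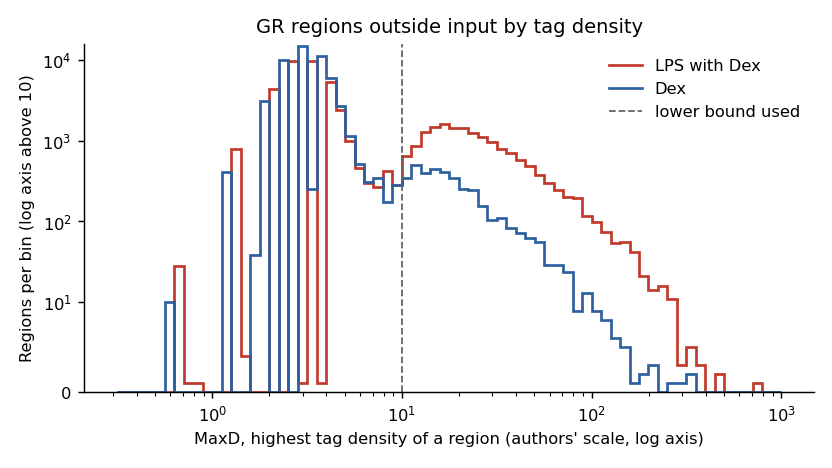
Number of regions outside input per bin of MaxD (log axis) in the LPS with Dex list and the Dex list; the dashed line is the bound of 10. Both lists have a low-density part below 10, cut into comb-like bins by the steps of the values, and above 10 the LPS with Dex curve runs over the Dex curve and reaches 746, against 346 for Dex.

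The 3 classes differed in density and width in the following order, all of it within what the choice of regions used. Regions in both lists were the densest, with a median MaxD of 39.6 in LPS with Dex (quartiles 24.1 and 65.7) and 17.3 in Dex (13.7 and 24.5). Regions of LPS with Dex alone had a median MaxD of 19.7 (15.1 and 27.7), close to the level that shared regions had in Dex, and a highest value of 206. Regions of Dex alone had a median of 13.1 (11.4 and 16.1) and a highest value of 49.0. Median AveD was 15.2 in LPS with Dex and 6.84 in Dex at regions in both, 7.85 in LPS with Dex alone and 5.25 in Dex alone. Median width was 700 bp in LPS with Dex and 552 bp in Dex at regions in both, 553 bp in LPS with Dex alone and 464 bp in Dex alone. The shape of the regions hardly varied: the median of AveD over MaxD lay between 0.391 and 0.398 in all 4 sets. In summed length, LPS with Dex alone covered 7.36 Mb and Dex alone 0.280 Mb, while regions in both covered 2.31 Mb in LPS with Dex and 1.82 Mb in Dex.

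**Figure D2:**
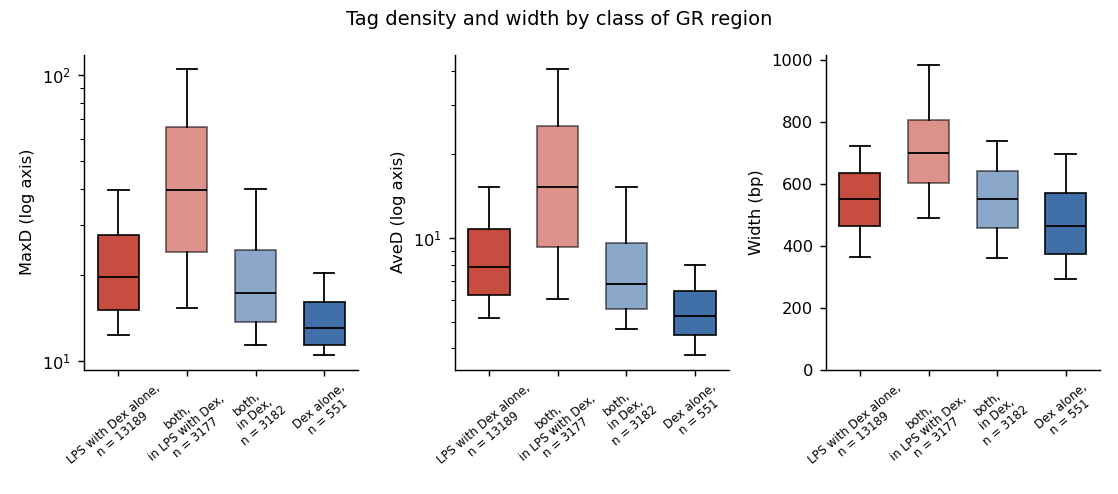
MaxD and AveD (log axes, authors' scale) and width in bp for each class; boxes show quartiles and median, whiskers the 10th and 90th percentiles of regions. Shared regions measured in LPS with Dex sit highest in all 3 panels, with a median MaxD of 39.6, and regions of Dex alone sit lowest, with a median of 13.1.

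How often a region was shared depended on its density in either list. In LPS with Dex the share also present in Dex was 7.97% at a MaxD of 10 to 20, 12.7% at 20 to 30, 28.6% at 30 to 50, 58.7% at 50 to 100 and 87.6% [83.9 to 90.6] at 100 or more. In Dex the share also present in LPS with Dex was already 80.0% at 10 to 20, then 93.1% and 96.8%, and 100% for all 160 regions at 50 to 100 and all 38 at 100 or more. Among regions of LPS with Dex alone, 630 with a MaxD of 50 or more met no Dex region of any density. No Dex region with a MaxD of 50 or more was without an LPS with Dex partner of 10 or more. A weaker partner, under a MaxD of 10, was listed in Dex for 382 regions of LPS with Dex alone, or 2.90% [2.62 to 3.20], with a median partner MaxD of 7.77. It was listed in LPS with Dex for 157 regions of Dex alone, or 28.5% [24.8 to 32.5], with a median partner MaxD of 8.02.

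The strongest regions of LPS with Dex alone had no counterpart in the Dex list. The highest was chr11:86409450-86410406, with a MaxD of 206, about 11 kb from Mir21a, the gene of a microRNA that LPS induces in macrophages. It overlapped a RelA region at 3 h of LPS. The next were chr3:142198491-142199323 (MaxD 170), chr16:76086080-76086918 (168), chr6:97874044-97874839 (167) and chr17:18021438-18022333 (167). Of these 5 regions 4 met RelA at 3 h, the one on chromosome 16 being the exception. Only that at chr17:18021438-18022333 met RelA at 8 h, where its RelA z-score of 71.9 exceeded the 53.4 at 3 h. RelA at 3 h met 72.0% of all regions of LPS with Dex alone with a MaxD of 100 or more.

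The strongest regions of Dex alone were far weaker. They were chr10:94054852-94055551 (MaxD 49.0), chr18:65263446-65264084 (47.8), chr10:71755795-71756427 (43.0), chr19:61000442-61000976 (41.3) and chr14:112917818-112918485 (41.2). None of these 5 met a RelA region at 0, 3 or 8 h of LPS or with late Dex, and none lay within 50 kb of an input region. RelA at 3 h met only 0.726% of all regions of Dex alone and 1.59% of the whole Dex list.

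At regions in both lists the signal was mostly the higher in LPS with Dex. The log2 ratio of MaxD, LPS with Dex over Dex, had a median of 1.16 with quartiles of 0.42 and 1.68. It was at least 1, a 2-fold higher MaxD, at 1798 of 3177 regions, or 56.6%, and at most -1 at 55, or 1.73%. Over regions of any MaxD found in both lists, 19188 in all, the corresponding shares were 13.2% and 4.64%. The bound of 10 in each list took part in choosing these regions, so nothing is read from that contrast. The median log2 ratio of AveD was 1.11 and that of width 0.33. The middles of paired regions lay a median of 32.0 bp apart and within 116 bp for 90% of pairs, so the pairs had nearly the same centres.

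The densest shared regions kept a high value in both lists, with 1 exception. The highest of all, chr17:26671834-26673046, had a MaxD of 746 in LPS with Dex and 346 in Dex. It lay about 27 kb from Dusp1, a phosphatase that inactivates mitogen-activated protein kinases and a classical glucocorticoid-induced gene, and it overlapped RelA regions at 3 h and 8 h. The second, chr17:28556820-28557865 within Fkbp5, had 487 in LPS with Dex and 165 in Dex, a 2.95-fold ratio, and met no RelA region. Fkbp5 encodes a co-chaperone that lowers the affinity of GR for its ligand. Of the other 3, chr16:52094536-52096169 and chr1:30986755-30987704 had 461 and 367 in LPS with Dex, against 147 and 108 in Dex. The remaining one, chr19:22022171-22023057, was the exception, with 385 in LPS with Dex and 15.4 in Dex.

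The region chr19:22022171-22023057 also had the highest ratio of all shared regions, 25-fold, and a RelA z-score at 3 h of 104. The next highest ratios were at chr11:109271554-109272418 (225 in LPS with Dex, 11.3 in Dex, 19.8-fold), chr18:78096910-78097759 (211 and 16.0, 13.2-fold), chr4:61940935-61941741 (350 and 29.8, 11.8-fold) and chr10:122337362-122338159 (149 and 14.7, 10.1-fold). All 5 met a RelA region at 3 h of LPS, beside 57.7% of all shared regions with a MaxD of 100 or more in LPS with Dex. The 5 lowest ratios were at chr13:53365127-53365513 (MaxD 15 in LPS with Dex, 61.4 in Dex, log2 ratio -2.03), chr9:95326138-95326606 (16.1 and 55.2, -1.78), chr12:42241555-42241976 (18.0 and 60.3, -1.74), chr5:106605592-106606031 (16.2 and 48.9, -1.59) and chr1:71125864-71126138 (16.2 and 48.3, -1.58). None of those 5 met RelA in the same lists, and none lay within 50 kb of input. RelA at 3 h met only 4.32% of all shared regions with a MaxD of 10 to 20 in LPS with Dex. None of 5 cannot be told from that share, so the 5 highest and 5 lowest ratios are not contrasted by RelA.

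The ratio was lower at the top of the Dex list. Its median was 1.20 where Dex MaxD was 10 to 20 and 0.71 at the 38 regions where it was 100 or more. At 13 of these 38 regions MaxD was at least 2-fold lower in LPS with Dex. Dex MaxD is the divisor of this ratio and also chose the bins, which by itself favours low ratios at high Dex MaxD. The bound of 10 in LPS with Dex also allowed no 2-fold lower value where Dex MaxD was under 20. Nothing is therefore read from the fall of the ratio or from the count of 13. Of the 5 regions with the highest MaxD in Dex, only that near Dusp1 was higher in LPS with Dex. The other 4, named after their values were seen, were chr18:90771301-90772116 (157 in LPS with Dex, 344 in Dex), chr6:103264309-103265008 (211 and 300), chr14:86598634-86599183 (114 and 253) and chr2:181747335-181748092 (109 and 223). None met RelA in those lists or lay within 50 kb of input, and none of the 13 regions met RelA at 3 h, whereas 14 of the other 25 did. At chr18:90771301-90772116 the authors' z-score of 1299 in LPS with Dex was out of step with its MaxD of 157, since chr17:26671834-26673046 had 427 at a MaxD of 746.

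**Figure D3:**
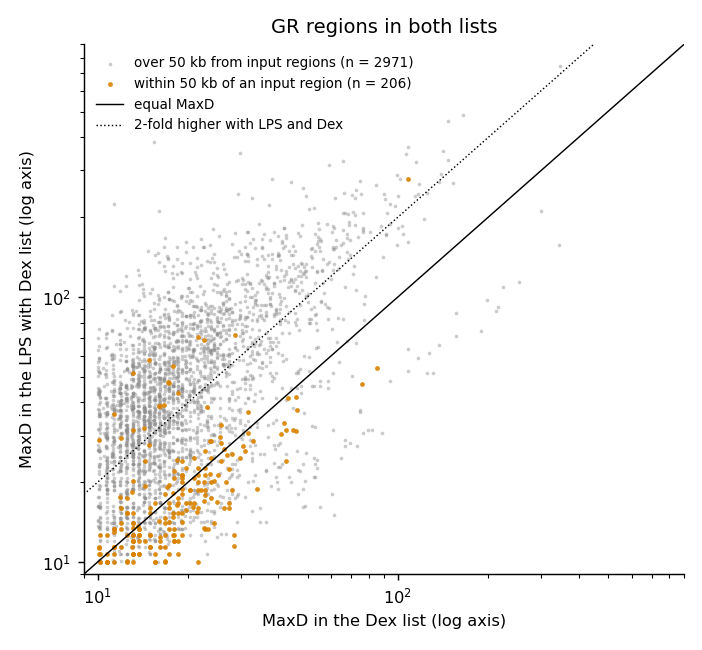
MaxD of each of the 3177 shared regions in LPS with Dex (vertical, log axis) against Dex (horizontal, log axis), with lines of equal and of 2-fold higher MaxD. Most points lie above the line of equality, the 206 regions within 50 kb of an input region (orange) gather around it, and a sparse row of regions with high Dex values runs below it.

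The ratio also depended on where along the genome a shared region lay. Near input regions, within 50 kb, it had a median of -0.11 (206 regions), against 1.21 elsewhere (2971 regions). On chromosome X it was -0.06 (245 regions), against 1.22 on all other chromosomes. The 19 autosomes taken one by one had medians of 0.97 to 1.40, so X stood outside their range, as did the 11 shared regions of chromosome Y, at -0.29. Both features had low ratios without the other: the median was 0.07 at the 129 regions of X away from input and -0.06 at the 90 regions near input on other chromosomes. Away from both it was 1.24 in 2842 regions, of which 90% were higher in LPS with Dex. Of the 469 shared regions lower in LPS with Dex, 28.4% lay on X and 27.3% near input, against 7.71% and 6.48% of all shared regions. The part of copy number, mappability or input signal in these ratios was not tested.

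Nearness to input separated the classes as well. It held for 1.38% [1.19 to 1.59] of regions of LPS with Dex alone, 6.48% of shared regions in LPS with Dex and 25.4% [21.8 to 29.3] of regions of Dex alone, beside 2.69% of the whole LPS with Dex list and 2.97% of the whole Dex list. On chromosome X lay 2.68% [2.41 to 2.97] of regions of LPS with Dex alone, 7.71% of shared regions in LPS with Dex and 24.0% [20.4 to 27.7] of regions of Dex alone, beside 7.57% of the whole LPS with Dex list and 9.21% of the whole Dex list. Chromosome 1 held 7.07% of regions of LPS with Dex alone and 11.1% [8.57 to 14.0] of regions of Dex alone, and chromosome 8 held 5.02% of regions of LPS with Dex alone and 8.17% [6.02 to 10.8] of regions of Dex alone. In the whole lists chromosome 1 held 7.75% of LPS with Dex and 8.03% of Dex, and chromosome 8 held 4.64% of LPS with Dex and 4.60% of Dex. On chromosome 19 lay 3.14% of regions of LPS with Dex alone and 3 of the 551 regions of Dex alone, or 0.544% [0.112 to 1.58], beside 2.06% of the whole LPS with Dex list and 1.61% of the whole Dex list.

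Regions of each class were grouped where neighbours of the class lay at most 10 kb apart, and groups of at least 3 were counted. Such groups held 11% of shared regions in LPS with Dex (351 regions in 76 groups), 18.2% of regions of LPS with Dex alone (2394 in 679 groups) and 21.6% of regions of Dex alone (119 in 24 groups). For LPS with Dex alone the class was dense along the genome, with a median gap of 40.4 kb, whereas regions of Dex alone lay a median of 1881 kb apart. Of the 2394 grouped regions of LPS with Dex alone, 31 lay within 50 kb of input, and of the 119 grouped regions of Dex alone 74 did. Among the 351 grouped shared regions in LPS with Dex, 119 lay within 50 kb of input.

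The largest groups of each class were as follows. Those of shared regions lay on chromosome X, at chrX:120299257-120337101 with 18 regions, chrX:120527593-120574771 with 13 and chrX:120979621-121015062 with 13. Of their regions 18 of 18, 13 of 13 and 12 of 13 lay within 50 kb of input, and none of the 3 spans held a RelA region at 3 h. The next largest, chrX:121925845-121952679 and chrX:122004110-122028645 with 11 regions each, also lay on X but had no region within 50 kb of input. In the span with 18 shared regions, chrX:120299257-120337101, the median MaxD of all regions was 18.5 in LPS with Dex and 21.5 in Dex. The largest group of LPS with Dex alone, chr11:8460843-8510302, held 11 regions over 49.5 kb with a median MaxD of 22.8, no Dex region of 10 or more and 4 RelA regions at 3 h. A group of 8 at chr6:113594679-113630423 held 6 RelA regions, while a group of 9 at chr8:19991307-20012476 held none and had a highest MaxD of 12.8. The span on chromosome 6 also held 2 shared regions of LPS with Dex, and that on chromosome 8 held 6. The 3 largest groups of Dex alone, chr7:67002099-67043221 with 12 regions, chrX:120544450-120579105 with 9 and chr8:19864889-19905706 with 8, each also held regions in both lists and had no RelA region at 3 h. Another, at chrX:120981134-121013186, also had 8. A shared region lay within 10 kb of 13.4% [12.9 to 14.0] of regions of LPS with Dex alone and of 34.8% [30.9 to 39.0] of regions of Dex alone.

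The ratio at shared regions differed with group size. Shared regions were sorted here by the number of regions of LPS with Dex, of either class, that followed one another within 10 kb. The median log2 ratio was 0.99 at lone regions, 1.34 in groups of 2, 1.43 in groups of 3 to 4, 1.10 in groups of 5 to 8 and -0.10 at the 140 regions in groups of 9 or more. Of those 140, 94 lay on chromosome X, with a median of -0.21, and the 46 on other chromosomes had a median of 0.28. By nearness to input, the 83 near it had a median of -0.23 and the other 57 had 0.16.

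The RelA lists took no part in choosing the GR regions. RelA at 3 h of LPS met 25.6% [24.0 to 27.1] of shared regions in LPS with Dex, 17% [16.4 to 17.7] of regions of LPS with Dex alone and 4 of the 551 regions of Dex alone, or 0.726% [0.198 to 1.85]. Over the whole lists outside input it met 6.05% of LPS with Dex and 1.59% of Dex. The latter lay within the interval of Dex alone, so Dex alone cannot be told from the whole Dex list here. RelA at 8 h of LPS met 10.3% [9.26 to 11.4] of shared regions and 9.58% [9.08 to 10.1] of regions of LPS with Dex alone. It met none of the 551 regions of Dex alone, which allows a share of up to 0.667%. Over the whole lists it met 3.13% of LPS with Dex and 0.631% of Dex, so the 0 of Dex alone cannot be told from the whole Dex list at this number of regions. With Dex given late in 8 h of LPS, RelA met 2.20% of shared regions, 1.08% of regions of LPS with Dex alone and none of Dex alone, beside 0.417% of the whole LPS with Dex list and 0.131% of the whole Dex list. The 0 of Dex alone, with an upper limit of 0.667%, again cannot be told from the whole Dex list. With Dex before 3 h of LPS, a list of 33 RelA regions, RelA met 7 shared regions in LPS with Dex, or 0.220% [0.0886 to 0.453]. It met 7 regions of LPS with Dex alone, or 0.0531%, and 3 of Dex alone, or 0.544% [0.112 to 1.58]. The share was thus highest in Dex alone, but from 3 regions and with an interval that overlapped that of shared regions. In the whole lists it was 0.0331% of LPS with Dex and 0.0200% of Dex.

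The order of the classes at 3 h differed between the pooled share and the shares at matched density. The pooled share was lower in LPS with Dex alone (17%) than at regions in both (25.6%), yet within each of 5 bins of MaxD it was higher in LPS with Dex alone. It was 9.35% [8.67 to 10.1] in LPS with Dex alone, against 4.32% [2.81 to 6.31] in both, at 10 to 20, and 17.1% against 14.0% at 20 to 30. At 30 to 50 it was 30.7% [28.7 to 32.7] against 20.2% [17.6 to 23.1], at 50 to 100 it was 48.8% [44.7 to 52.9] against 39.5% [36.2 to 42.9], and at 100 or more it was 72.0% [57.5 to 83.8] against 57.7% [52.3 to 62.9]. The intervals of the classes overlapped at 20 to 30 and at 100 or more. At 8 h the gap was wider in proportion: 4.09% [3.62 to 4.59] in LPS with Dex alone, against 0.518% [0.107 to 1.51] in both, at 10 to 20, 8.94% against 1.47% at 20 to 30, 19.9% against 8.89% at 30 to 50, 34.9% against 18.2% at 50 to 100 and 48.0% against 24.4% at 100 or more. The intervals did not overlap in any bin at 8 h. Within a bin the median MaxD of shared regions was up to 139 and that of LPS with Dex alone up to 110, and from 20 upward it was the higher one at shared regions in every bin.

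**Figure D4:**
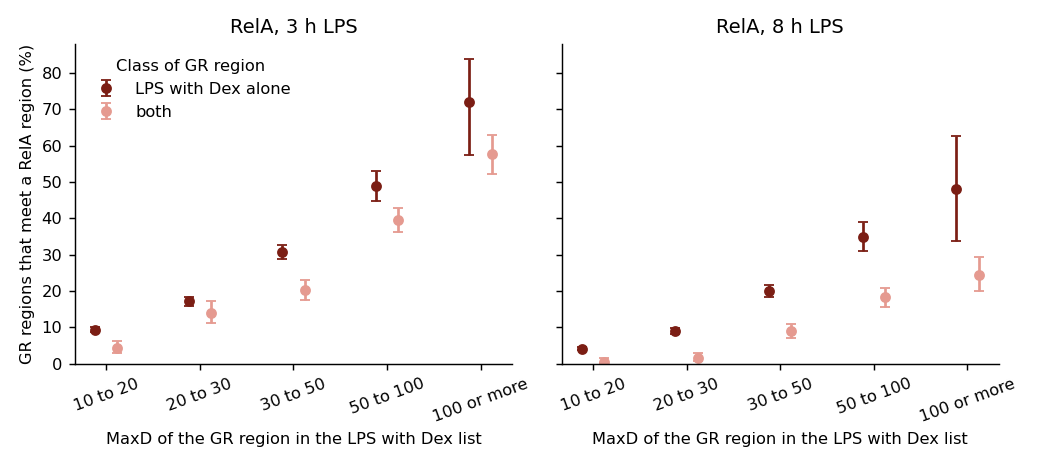
Share of GR regions that met a RelA region at 3 h (left) and 8 h (right) of LPS, by MaxD of the GR region in LPS with Dex, for regions of LPS with Dex alone and for regions in both lists; bars are exact 95% intervals. The share climbs with density in both classes, and regions of LPS with Dex alone lie above shared regions in each of the 5 bins, 72.0% against 57.7% in the densest bin at 3 h.

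Within the shared regions, RelA overlap followed the ratio. At 3 h it was 55.0% [50.0 to 59.9] where MaxD was at least 4-fold higher in LPS with Dex (404 regions), 32.3% [29.8 to 34.8] at 2-fold to 4-fold (1394 regions), 13.8% [11.7 to 16.3] where it was higher by less (910 regions) and 3.38% [1.86 to 5.61] where it was lower by less than 2-fold (414 regions). None of the 55 regions at least 2-fold lower met RelA at 3 h or at 8 h, with an upper limit of 6.49%. Within 50 kb of input lay 0, 18, 60, 125 and 3 regions of these sets, in the same order. The part of nearness to input in the RelA shares was not tested, and such regions stayed in the splits below. Median MaxD in LPS with Dex also differed between these sets, at 81.5, 49.4, 25.4, 15.4 and 22.7 in that order. Median MaxD in Dex was 53.7 at the 55 regions at least 2-fold lower and lay between 15.9 and 19.1 in the other sets. The shares were also split at a 2-fold ratio within bins of MaxD in LPS with Dex, which the 10 to 20 bin did not allow, since none of its regions was 2-fold higher. For regions of 50 to 100, RelA at 3 h met 41.1% [37.5 to 44.8] of those at least 2-fold higher than in Dex and 29.3% [21.2 to 38.5] of the others. For regions of 20 to 30 the shares were 23.8% [16.8 to 32.1] and 10.9% [8.06 to 14.3], for regions of 30 to 50 they were 23.8% [20.5 to 27.4] and 11.3% [7.67 to 16.0], and for those of 100 or more they were 59.5% [53.9 to 64.8] and 33.3% [15.6 to 55.3], the last from 24 regions. The share was thus the higher one at regions at least 2-fold higher in all 4 bins, with intervals that overlapped at 50 to 100 and at 100 or more.

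GR regions were then counted at genes of known role, within 50 kb of each gene. No annotation of mm9 was at hand, so gene positions are approximate ones from general knowledge. They were kept for 20 of 32 listed genes, on 6 chromosomes, whose spacing to another listed gene was within 2 kb of that in RefSeq on GRCm38.p6, and each window may hold other genes. In the 20 windows lay 94 regions of LPS with Dex, of which 37 (39.4%) were also in Dex, and 2 regions of Dex alone. Both of the last lay at Cdkn1a.

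At glucocorticoid-induced genes 19 of the 30 regions in LPS with Dex (63.3%) over 9 genes were in both lists, beside 19.4% of all LPS with Dex regions. Here and at the gene sets below, that 19.4% was not matched for density. Over all LPS with Dex regions the share rose from 7.97% at a MaxD of 10 to 20 to 87.6% at 100 or more. Fkbp5 and Dusp1 held 7 and 5 of the 19, and 3 of the 9 genes had no region. At Fkbp5 7 of 8 regions were shared, and the second densest had a MaxD of 182 in LPS with Dex and 99.7 in Dex. At Dusp1 5 of 9 were shared. Beside the region of 746 the Dusp1 window held regions of 139 and 97.4 in LPS with Dex, which had 35.7 and 33.8 in Dex. Per1, a repressor in the circadian clock, had 2 regions, both shared, the denser with a MaxD of 141 in LPS with Dex and 88.9 in Dex. Sgk1, a kinase induced by serum and glucocorticoids, had 2 shared regions and 3 of LPS with Dex alone, the densest with 86.4 in LPS with Dex and 38.7 in Dex. Klf9, a zinc-finger transcription factor, had 1 shared region, with 52.5 in LPS with Dex and 19.2 in Dex, and 1 of LPS with Dex alone. Cdkn1a, an inhibitor of cyclin-dependent kinases, was the only locus with all 3 classes, 2 shared, 2 of LPS with Dex alone and 2 of Dex alone. Its highest MaxD was 31.5 in LPS with Dex and 17.3 in Dex, at different regions. Angptl4, an inhibitor of lipoprotein lipase, Pdk4, a kinase that restrains pyruvate dehydrogenase, and the anti-inflammatory protein gene Anxa1 had no region of 10 or more in either list.

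The macrophage genes Mertk, a receptor tyrosine kinase for the uptake of apoptotic cells, and Cd163, the scavenger receptor for haptoglobin-bound haemoglobin, had 6 of 10 regions shared. The densest at Mertk had a MaxD of 168 in LPS with Dex and 54.3 in Dex. The densest at Cd163 in LPS with Dex had 47.6 in LPS with Dex and 11.9 in Dex. The highest MaxD in Dex at Cd163 was 25.1, at a different shared region.

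At regulators of the LPS response 7 of 25 regions (28.0%) over 4 genes were shared. Tnfaip3, a ubiquitin-editing enzyme that limits NF-κB signalling, had 2 shared regions and 6 of LPS with Dex alone. Its densest region had a MaxD of 153 in LPS with Dex and 41.5 in Dex, and overlapped RelA regions with a MaxD of 76.0 at 3 h and 49.6 at 8 h. The second shared region at Tnfaip3 had 89.6 in LPS with Dex and 29.9 in Dex, and its 6 others reached 47.7. Mir21a had the most regions of any locus, 3 shared and 8 of LPS with Dex alone. Its shared regions had 67.3, 58.3 and 76.2 in LPS with Dex, against 37.4, 11.2 and 15.5 in Dex. The 7 neighbouring regions of LPS with Dex alone there, the region of 206 among them, formed a group over 32.2 kb with 8 RelA regions at 3 h. Cebpb, a leucine-zipper transcription factor, had 2 shared and 3 of LPS with Dex alone, the densest with 118 in LPS with Dex and 21.5 in Dex. Irf1, a transcription factor of the interferon response, had 1 region, in LPS with Dex alone, with a MaxD of 18.2.

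At inflammatory genes 5 of 29 regions (17.2%) over 5 genes were shared, a share near the 19.4% of all LPS with Dex regions. At Tnf, which encodes tumour necrosis factor, 4 regions with a MaxD of 12.8 to 29.5 were listed in LPS with Dex and none of any MaxD in Dex. The densest of them overlapped RelA regions with a MaxD of 58.3 at 3 h and 69.7 at 8 h. At Nos2, the inducible nitric oxide synthase, 6 regions reached 52.8 in LPS with Dex, and the Dex list again held none of any MaxD. Il1b, which encodes the cytokine interleukin-1 beta, had 8 regions of LPS with Dex alone with a MaxD of 12.8 to 84.4. The 1 shared region at Il1b had 40.1 in LPS with Dex and 20.9 in Dex. Il12b, a subunit shared by interleukins that act on T cells, had 1 shared region and 2 of LPS with Dex alone, the denser of which had 56.4. Ccl2, a chemokine for monocytes, had 3 of 7 regions shared, the densest with 63.8 in LPS with Dex and 31.5 in Dex.

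**Figure D5:**
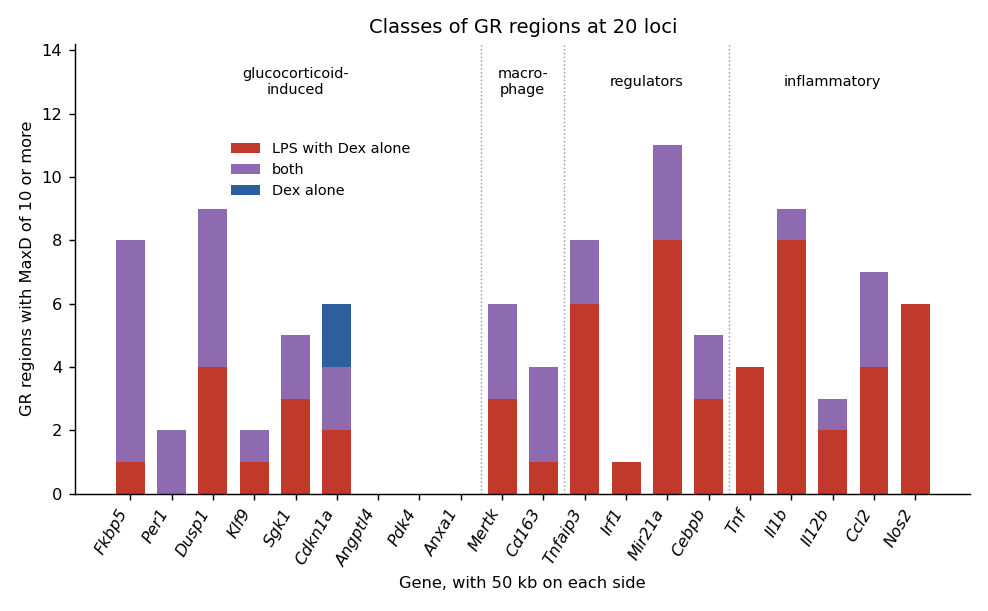
Number of GR regions with a MaxD of 10 or more within 50 kb of each of 20 genes, stacked by class and ordered by role (dotted lines part the roles). Shared regions make up 7 of the 8 regions of LPS with Dex at Fkbp5 and none at Tnf and Nos2, and regions of Dex alone occur at Cdkn1a only.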

How the data were processed

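ChIP-seq region lists, 1 per library, were used as deposited. CASAVA and the build mm9 are named, per the submitters' processing notes; how regions were called, at which threshold and with what handling of duplicate reads is not given in those notes or the labels. Per the file headers each region has a highest and a mean tag density (signal), a z-score and a p-value. The deposited signal and score are the authors' own values; the p-value was not used.

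Regions overlapping the input list were left out before overlaps of at least 1 bp were found. Where a region had several partners, the partner with the highest MaxD was taken. Named regions were, per class, the 5 with the highest MaxD, the 5 highest and 5 lowest ratios at shared regions, and the 3 largest groups. The classes, regions and gene lists were chosen with earlier results of these data known. The code (Python 3.11.15, pandas 2.3.3, numpy 2.4.6, scipy 1.17.1, matplotlib 3.10.9) was tested on simulated data. Density steps were searched among values below 8, with a tolerance of 0.001. The count of 10 alternatives included other overlaps, bounds and exclusions.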

Additional observations from a re-analysis of the deposited data

How the results depend on the processing

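The median log2 ratio and the order of RelA overlap kept their direction under the 10 alternatives; 3 of them (chromosome X left out, regions within 50 kb of input left out, a bound of 15 density steps) were chosen after seeing the data. The share of LPS with Dex regions also in Dex, 19.4%, and the share of Dex regions also in LPS with Dex, 85.2%, became 12.3% and 87.7% with a MaxD of 20 or more, 48.6% and 48.9% with the same number of regions from each list, 17.2% and 75.2% with 50% overlap of both regions, 18.8% and 82.2% with centres within 250 bp, 21.7% and 89.4% with the other list unfiltered, 18.6% and 87.9% away from input, 18.6% and 87.5% without X, and 20.0% and 82.4% at 15 steps. With regions over input kept the first was 20.5%. Regions of LPS with Dex alone numbered 7983 and of Dex alone 157 at a MaxD of 20 or more, and 1920 and 1906 with equal numbers. Equal list lengths fix those last counts close to each other. At 50% overlap Dex alone numbered 926. The median log2 ratio, 1.16, became 1.57 with equal numbers, 1.09 at 50% overlap, 1.07 with regions over input kept, 1.21 away from input and 1.22 without X. RelA overlap remained higher in LPS with Dex alone in 100% of the density bins.

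No paired analysis was possible because each condition had 1 library. For the same reason no library was left out in turn, and depth or precipitation efficiency cannot be told apart from treatment.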

Other observations

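Regions left out because they overlapped input numbered 246 in LPS with Dex and 285 in Dex at a MaxD of 10 or more. Their median MaxD was 24.3 in LPS with Dex and 24.0 in Dex, and 42.7% in LPS with Dex and 39.6% in Dex lay on chromosome X. Of these, 218 of LPS with Dex were also in Dex, with a median log2 ratio of -0.31, and 49 of them were higher in LPS with Dex, unlike the 85.2% higher among shared regions outside input.

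The narrowest listed width, 251 bp, occurred in every class: at 1.27% [1.08 to 1.47] of regions of LPS with Dex alone, 0.409% of shared regions in LPS with Dex, 0.943% of shared regions in Dex and 2.54% [1.40 to 4.23] of regions of Dex alone.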
